A study of Mus musculus with 28 samples.

Results

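The regions described here are the broad H3K4me3 peaks that A2a and D1 neurons of the mouse striatum had in common. A peak was taken when it lay on chromosomes 1 to 19, was at least 2400 bp long in A2a, and overlapped by at least 1 bp a D1 peak that was also at least 2400 bp long. Of the 21819 A2a peaks on these chromosomes, 1073 met the rule, which is 4.92% of them. The regions were chosen by peak length in both lists, so length, fold enrichment and −log10 q are given as descriptions with no test.

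Trimethylation of lysine 4 on histone H3 is placed by methyltransferases of the SET1 and MLL families and marks the starts of transcribed genes, most often at CpG-rich promoters. At most promoters the mark covers a short stretch around the start site, and at a minority it runs on into the gene. Broad domains of this kind are known for genes tied to the identity and function of a cell type, and neurons are among the cells in which they have been described. H3K27me3, the mark of Polycomb repressive complex PRC2, is the counterpart measured in separate libraries of the same cell types. CpG-rich promoters can carry both marks.

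The libraries were CUT&RUN (CnR), in which an antibody directs micrococcal nuclease to cut out the DNA around a histone mark. They were made from nuclei isolated by INTACT from the striatum of adult mice on a C57BL/6J background, Sun1-sfGFP;A2a-cre for indirect-pathway and Sun1-sfGFP;Drd1-cre for direct-pathway spiny projection neurons. Both lines carry R26-CAG-LSL-Sun1-sfGFP, which puts a GFP tag on the nuclear envelope of any cell in which the Cre driver is or has been active, so each group is as pure as its driver and the pull-down. Neither line received a treatment, and the striatum of a single mouse served for each library. H3K4me3 peaks and H3K27me3 islands were called on 2 pooled replicates for each cell type and mark. A pooled list has no spread between mice, so no difference between A2a and D1 could be tested, and the depth of each library is unknown from the lists. The D1 H3K27me3 samples have conflicting labels (source name A2a, title and cell type D1). They were taken as D1, and each comparison of islands between the cell types rests on this.

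The sequence just before the start differed widely among the genes with broad peaks. The 200 bases upstream of 7 gene starts are shown (mm10, GRCm38, from the RefSeq genome) 5′ to 3′ on the strand of the gene, each of them inside the broad peak and outside annotated exons, with every CpG in capitals. Foxo3, Foxo1 and Cpeb4 are among the longest peaks, Adora2a and Gpr6 had an H3K27me3 island in D1 alone, Gad2 had one in A2a alone, and Sox2 had one in both.
Foxo3 (chr10:42276756-42276955, minus strand): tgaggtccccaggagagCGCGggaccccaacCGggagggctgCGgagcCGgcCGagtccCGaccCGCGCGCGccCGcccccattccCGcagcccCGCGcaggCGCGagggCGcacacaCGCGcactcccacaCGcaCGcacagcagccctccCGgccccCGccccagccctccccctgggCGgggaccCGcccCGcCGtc
Foxo1 (chr3:52268136-52268335, plus strand): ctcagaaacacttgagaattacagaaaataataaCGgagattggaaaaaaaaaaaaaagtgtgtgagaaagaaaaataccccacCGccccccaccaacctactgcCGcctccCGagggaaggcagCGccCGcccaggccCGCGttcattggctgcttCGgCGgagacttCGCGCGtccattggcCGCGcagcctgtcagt
Cpeb4 (chr11:31872011-31872210, plus strand): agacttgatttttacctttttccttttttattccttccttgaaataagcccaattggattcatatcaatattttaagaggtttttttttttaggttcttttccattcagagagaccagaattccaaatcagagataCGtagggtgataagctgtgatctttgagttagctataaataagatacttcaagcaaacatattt
Adora2a (chr10:75316677-75316876, plus strand): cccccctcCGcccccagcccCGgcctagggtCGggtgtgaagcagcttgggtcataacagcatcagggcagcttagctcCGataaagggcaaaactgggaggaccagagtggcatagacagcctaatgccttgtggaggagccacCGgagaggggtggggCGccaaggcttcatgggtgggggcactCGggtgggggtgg
Gpr6 (chr10:41072286-41072485, minus strand): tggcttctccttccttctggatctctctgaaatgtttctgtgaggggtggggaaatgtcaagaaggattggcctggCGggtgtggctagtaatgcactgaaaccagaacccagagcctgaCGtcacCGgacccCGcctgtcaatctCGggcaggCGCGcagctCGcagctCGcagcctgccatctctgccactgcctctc
Gad2 (chr2:22622005-22622204, plus strand): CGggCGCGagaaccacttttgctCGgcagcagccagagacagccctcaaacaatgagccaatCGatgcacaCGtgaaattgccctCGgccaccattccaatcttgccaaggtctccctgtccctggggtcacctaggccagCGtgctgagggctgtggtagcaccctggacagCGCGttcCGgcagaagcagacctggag
Sox2 (chr3:34650205-34650404, plus strand): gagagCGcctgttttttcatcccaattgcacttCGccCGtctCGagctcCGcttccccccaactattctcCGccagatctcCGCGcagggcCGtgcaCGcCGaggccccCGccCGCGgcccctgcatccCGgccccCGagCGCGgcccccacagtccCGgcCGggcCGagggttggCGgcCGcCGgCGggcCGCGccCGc
The stretch before Foxo3 held 28 CpGs at 81% GC, and that before Sox2 also held 28, at 75.5% GC. The stretch before Cpeb4 held 1 CpG at 30.5% GC. The stretch before Adora2a held 7 CpGs, with an observed to expected ratio of 0.343, against 9 and 0.518 before Gpr6. A CpG-dense stretch directly upstream of the start was therefore not shared by all broad peaks, even among the longest.

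Within the rule, the broad peaks were nearly the same intervals in both neurons. The rule asks for at least 2400 bp in both lists and leaves out A2a peaks whose D1 peak fell short. Close agreement in length was therefore partly set in advance. Their length in A2a ran from 2402 to 4611 bp with a median of 2834 bp, and in D1 from 2400 to 5037 bp with a median of 2719 bp. The bases shared by both peaks made up a median of 95.7% of the bases covered by either. The D1 length was a median of 0.977 of the A2a length, and in 914 regions (85.2%) the lengths were within 10% of each other. D1 was the shorter in 786 regions, the longer in 279 and equal in 8. The same lean held at the shared peaks under 2400 bp, of which 78.3% were shorter in D1, with a median ratio of 0.924, so the lean was not limited to broad regions. The strongest point of the peak, its summit, lay a median of 105 bp apart in the lists.

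**Figure D1:**
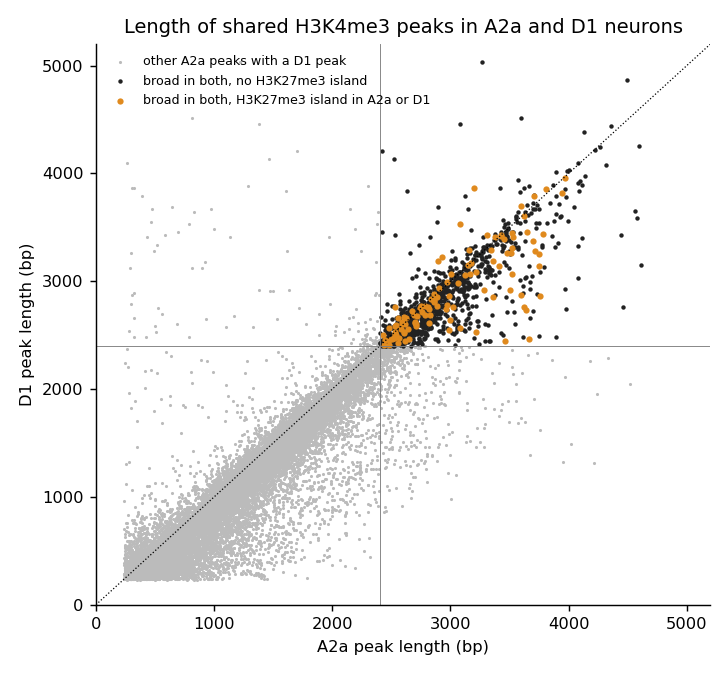
Length of each shared peak in A2a (x axis, bp) against D1 (y axis, bp). Grey points are other A2a peaks with a D1 peak, black and orange points are the 1073 regions broad in both without and with an H3K27me3 island, grey lines mark 2400 bp and the dotted line equal length. Most broad regions, chosen as at least 2400 bp in both lists, lie close to the line of equal length.

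The cutoff split a continuous range of lengths. A further 488 autosomal A2a peaks reached 2400 bp without being counted, and each of them had a D1 peak that fell short. The longest D1 peak of these had a median of 2168.5 bp, and in 365 of them it was at least 1800 bp. Of the D1 autosomal peaks of at least 2400 bp, 1073 of 1145 (93.7%) were partners, while 68.7% of the A2a ones were. Just inside lay the translationally controlled tumour protein gene Tpt1, with 2492 bp in A2a and 2401 bp in D1, an internal start of Fam78a (2521 and 2400 bp), and a peak near Zfp213 (2417 and 2401 bp). Just outside lay the phosphate transporter gene Slc20a1 (2524 and 2398 bp), the vascular growth factor gene Vegfa (2548 and 2397 bp) and the ephrin gene Efnb3 (2784 and 2397 bp). On the A2a side the nearest were Cdk17 (2397 and 2405 bp), a peak near Zfhx3 (2395 and 2453 bp) and Dtnb (2392 and 2875 bp).

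The 12 longest regions had mean lengths of 4057 to 4678 bp. The region of greatest mean length, 4494 bp in A2a and 4862 bp in D1, lay inside Lrrtm3, 341 bp from an annotated start of this leucine-rich repeat synaptic adhesion gene, at chr10:64085413-64089906. The region at Foxo3, a forkhead transcription factor of insulin and stress signalling, spanned 4597 bp in A2a (chr10:42273714-42278310) and 4258 bp in D1. Its relative Foxo1 had 4264 and 4243 bp (chr3:52267753-52272016). Both forkhead genes thus ranked among the 12 longest.

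Cpeb4 and Cpeb2, whose proteins bind cytoplasmic polyadenylation elements in messenger RNA, had 4355 and 4436 bp (chr11:31870483-31874837) and 4134 and 4388 bp (chr5:43232485-43236618) in A2a and D1. An internal start of Homer1, the scaffold of the postsynaptic density whose short form is activity-induced, had 4079 and 4094 bp. Kcnj2, an inward rectifier potassium channel gene, had 4579 and 3589 bp, and the Notch target Hey1 had 4565 and 3647 bp. In these last genes the A2a peak ran about 1 kb further, while the Cpeb and Homer1 peaks were slightly longer in D1. The others of the 12 were Kctd16, Tspyl4, Lrrtm2 and a peak 25.4 kb from the nearest coding start, that of Ythdf1. The A2a fold enrichment of the 12 was low, from 2.51 at Homer1 to 4.15 near Ythdf1.

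Relatives of these genes were looked at after the values had been seen, so their counts support nothing. All 4 Lrrtm genes had a member between 1 kb upstream and 5 kb downstream of the start, from 2945 and 2618 bp at Lrrtm4 to the Lrrtm3 region. Both autosomal neuroligins had one, Nlgn1 (3639 bp in A2a, 2736 bp in D1, where a second peak overlapped the same A2a interval) and Nlgn2 (2808 and 2738 bp), the postsynaptic partners of neurexins. Among the autosomal Slitrk genes Slitrk1 (3516 and 3266 bp) and Slitrk5 (3455 and 3432 bp) had one, and the longest peaks at Slitrk3 and Slitrk6 were 1318 and 1997 bp in A2a. Cpeb1 and Cpeb3 reached 1470 and 2284 bp in A2a. The third autosomal Foxo gene, Foxo6, was broad in A2a (3518 bp) and just short of the cutoff in D1 (2364 bp).

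The widest differences in length were read within the rule, which holds both lengths at 2400 bp or more. A2a peaks with a D1 peak below the cutoff, such as that at Bcl11b (4217 bp in A2a, 1070 bp in D1), are therefore not among them. The ratio of D1 to A2a length was highest near Pcdh7, a protocadherin gene, at 1.74 (2422 bp in A2a, 4212 bp in D1), followed by an internal start of Baiap2 at 1.64 (2525 and 4130 bp) and by Lrrtm2 at 1.54 (3264 and 5037 bp). A peak near the POU-domain gene Pou3f1 had a ratio of 1.46, and the start of Kmt2e, an MLL-family gene, had a ratio of 1.45 (3083 and 4456 bp). It was lowest at Trim8 (0.619, 4457 and 2759 bp), the ataxin gene Atxn1 (0.636, 3896 and 2479 bp) and Klf12 (0.663, 3753 and 2488 bp), then at Sema6a (0.672) and Cacna2d3 (0.684, 4611 and 3155 bp). The caller was run for narrow peaks and can split a wide domain, and 44 of the 1073 regions overlapped more than 1 D1 peak. Summing all of them left the median ratio at 0.978.

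These regions were wide and low in fold enrichment. Fold is a ratio to background and does not give the height of a peak. The fold enrichment at the summit over the local background of the same library was a median of 4.79 in A2a and 4.79 in D1, against 6.65 over all autosomal A2a peaks. In A2a, 1036 regions (96.6%) were below the median fold of the list, and the median region stood at percentile 25.7 by fold. The −log10 q is also scored at the summit, and grows with the reads there as well as with the fold. By −log10 q the median region stood at percentile 75.4 in A2a (135) and 72.0 in D1 (87.8). Fold rose with length up to a median of 8.59 at peaks of 1200 to 1799 bp and fell to 3.64 at 3600 bp and above. The q-value and the fold of 1 list therefore ranked these regions in opposite ways.

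Broad regions sat at coding genes. A protein-coding gene start lay inside 777 regions, 72.4% (Wilson 95% interval 69.663 to 75.005), against 44.6% of all autosomal A2a peaks. Longer intervals catch more starts, and 51.1% of the shared peaks under 2400 bp held one. In a further 221 regions the start was that of another transcript of a coding gene, which brought the share with any coding transcript start to 93.0%, against 56% of all peaks. Of the remaining 75 regions, 20 held the start of a long non-coding RNA, 6 that of another gene type, 40 lay inside a gene and 9 lay between genes. The comparison changed when peaks of like −log10 q were set side by side, a choice made after seeing the data. Between the quartiles of the broad regions (107 and 166) a coding gene start lay in 71.5% of 537 broad regions and in 78.9% of 4177 shorter shared peaks, and any coding transcript start lay in 93.3% and 92.1%.

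At least 2 coding gene starts lay in 107 regions (9.97%, against 5.24% of all peaks), and in 100 they were on both strands. No region held 4. Outside the naming rule, and chosen after values had been seen, 4 regions held 3 starts. One of these held B4gat1 and Brms1 (3293 and 3115 bp) and another Bet1l and Ric8a (2451 and 2558 bp). The regions farthest from a coding transcript start were few. One lay 2070.9 kb from the nearest start, that of Tenm3 (chr8:50914884-50917414, 2531 and 2758 bp), and overlapped H3K27me3 islands in both neurons. The next lay near Lipi, Adgrl2, Sorl1 and Rapgef5, and the Adgrl2 one, 2553 and 2427 bp long, was also under islands in both.

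The extra length lay inside the gene. Among the 670 regions with the start of a single coding gene, a median of 2248 bp (quartiles 1920 and 2605) lay downstream of that start. A median of 563 bp (329 and 913) lay upstream. At the 7396 shared peaks under 2400 bp with a single start these were 1071 and 415 bp. The downstream share of the length was a median of 80.4% in the broad regions and 71.9% in the shorter ones, and more than 50% of the length was downstream in 94.3% and 91.1%. The summit lay a median of 889 bp downstream of the start, against 235 bp. These distances run from the 5′ end of the gene, and a peak can also hold internal starts. All A2a peaks of 2400 to 2999 bp held a median of 3 coding transcript start positions, as did those of 1200 to 1799 bp. The distance from the summit to internal starts was not measured. A 500 bp window at the summit held a coding gene start in 13.5% of the broad regions and in 22.0% of all peaks.

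**Figure D2:**
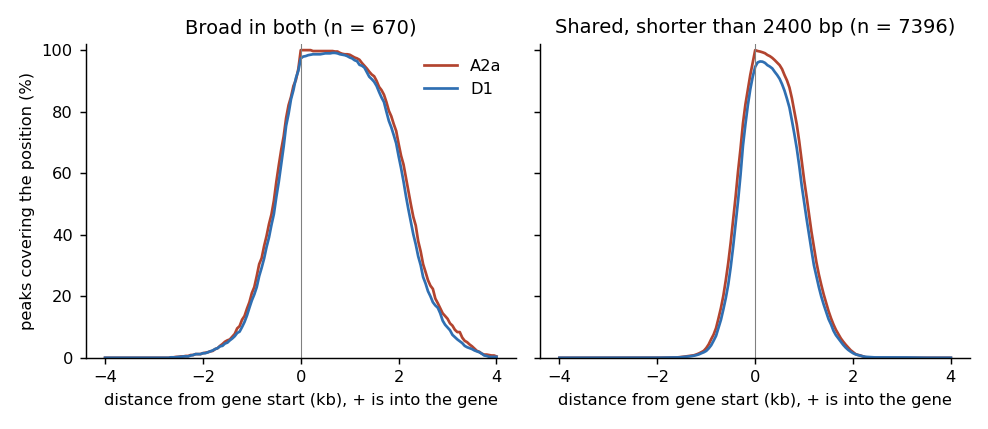
Percent of peaks that cover each position (y axis) by distance from the gene start in kb (x axis, positive into the gene), for A2a in red and D1 in blue. The left panel shows the 670 broad regions with the start of a single coding gene, the right panel 7396 shorter shared peaks. The broad profile is extended mainly to the right of the start.

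The downstream edge passed the first exon in 97.0% of the single-start regions and in 94.4% of the shorter peaks. The first exon itself was longer at broad regions, with a median of 402 bp against 227.5 bp. The genes were longer too, 66.1 kb at the median against 26.4 kb at shorter shared peaks and 26.4 kb at the shorter shared peaks of like q. The number of annotated transcripts per gene was a median of 5 in both. Among the longest regions the Kctd16 and Lrrtm2 peaks had the highest shares, with 96.7% and 90.1% of the A2a peak downstream of the start, while the Foxo3 peak had 66.2% downstream and 1555 bp upstream.

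The CpG content of broad regions depended on where it was read. In the 500 bp around the summit the observed to expected CpG ratio was a median of 0.595, near the 0.619 of shorter shared peaks and the 0.559 of all peaks, and 49.3% of regions exceeded 0.6 against 45.3% of all peaks. It was 0.739 at the shorter shared peaks of like q. Around the gene start of single-start regions the ratio was 0.842, against 0.803 at shorter shared peaks. CpG-island-like sequence, counted in 200 bp windows with GC above 50% and a ratio above 0.6 within 3 kb of the summit, covered a median of 1640 bp, against 860 bp at shorter shared peaks, 1040 bp at those of like q and 780 bp at all peaks. Among the 12 longest regions such sequence ran from 220 bp at Lrrtm2 to 4060 bp at Foxo3, and the summit window held from 1 CpG at Tspyl4 and Kctd16 to 55 at Cpeb2.

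**Figure D3:**
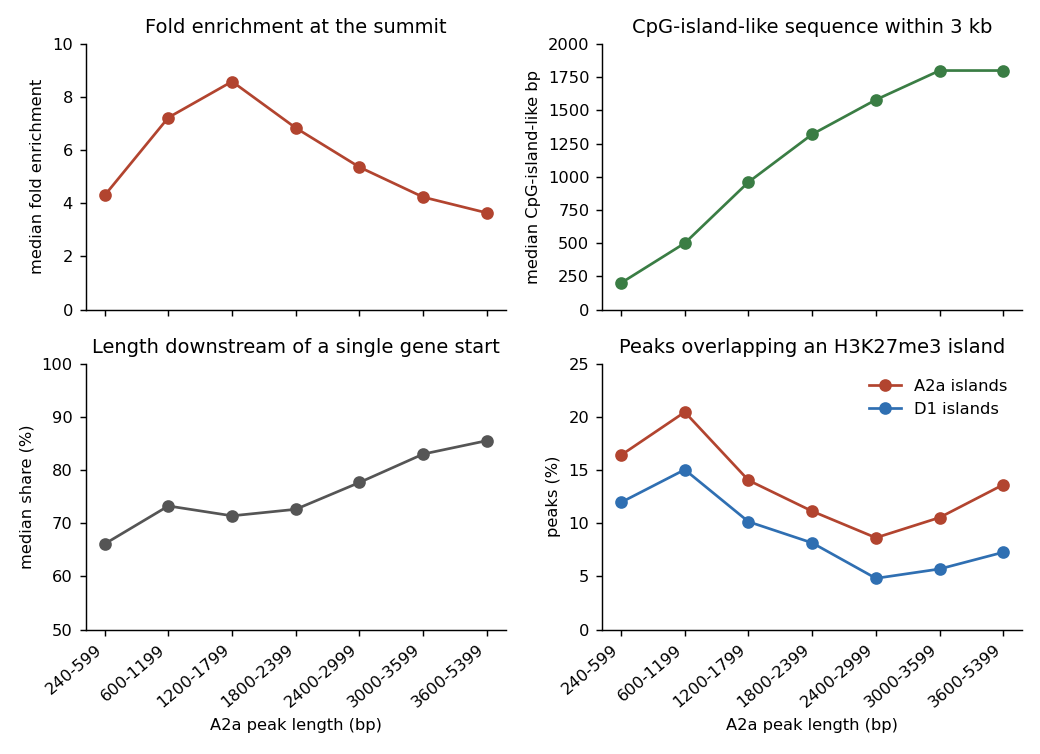
Autosomal A2a peaks by length bin (x axis, bp), members or not, with the median fold enrichment, the median bp of CpG-island-like sequence, the median percent of the length downstream of a single gene start, and the percent overlapping an H3K27me3 island in A2a (red) or D1 (blue). Fold peaks at 8.59 in the 1200 to 1799 bp bin, while CpG-island-like sequence rises to 1800 bp in the longest bins and the downstream share to 85.6%.

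Short motifs at the summit were found at shares close to those of the whole list. Both strands of the 300 bp around the A2a summit were searched for exact letters, so a match is only a description. In single-start regions the summit lay a median of 889 bp past the gene start, so most of these windows were not at that start. The Sp/KLF box GGGCGG was present in 30.8% of the regions and 32.9% of all A2a peaks, CCAAT in 28.1% and 27.04%, TATAAA in 6.99% and 8.45%, and the AP-1 letters TGANTCA in 5.41% and 7.09%. The full NRF1 palindrome was present in 3 regions, 0.280% against 0.440%. At the shorter shared peaks GGGCGG was present in 37.0%, CCAAT in 26.4%, TATAAA in 7.64%, TGANTCA in 6.45% and the NRF1 palindrome in 0.555%. The full cAMP response element TGACGTCA was present in 9 regions, 0.839% against 0.843% of all peaks and 1.01% of the shorter shared peaks. It is shown here at 3 of them with 10 flanking bases on the plus strand (mm10), the element in capitals: at an internal start of Prkar1a, the gene of a regulatory subunit of protein kinase A (chr11:109650890-109650917), at the brain creatine kinase gene Ckb (chr12:111671593-111671620) and at Azin1 (chr15:38519307-38519334).
Prkar1a: cgaggcgcatTGACGTCAgcagccgaac
Ckb: gcggcgacagTGACGTCAccgtcaggca
Azin1: cgggggctgcTGACGTCAcagacggccg

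Few broad regions were under H3K27me3. An A2a island overlapped 100 of them, 9.32% (Wilson 95% interval 7.72 to 11.2), against 15.5% of all autosomal A2a peaks. A D1 island overlapped 49, 4.57% (3.47 to 5.99), against 11.2%. These intervals cover counting error only. The A2a list was the larger, with 60191 islands over 301 Mb against 45760 over 184 Mb, and with the A2a list cut to as many islands as the D1 list the A2a share was 7.64%. In all, 39 regions had an island in both, 61 in A2a alone, 10 in D1 alone and 963 (89.7%) in neither. With the 500 bp summit window in place of the whole peak the shares were 8.29% against 14.9% of all peaks in A2a and 3.36% against 10.7% in D1.

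The direction of this comparison turned with the peaks it was set against. Among the broad regions with −log10 q between their quartiles, 8.57% overlapped an A2a island and 3.91% a D1 island. At the shorter shared peaks of the same q these were 4.93% and 2.73%. In the 500 bp summit window, which does not grow with peak length, the broad regions had 7.82% in A2a and 2.61% in D1. The shorter peaks of like q had 4.14% and 2.27% there. Thus islands were rarer at broad regions than in the whole list. They were more frequent than at shorter peaks of like q in A2a, while in D1 the shares in the summit window were close. By length, the A2a share fell from 20.5% at 600 to 1199 bp to 8.64% at 2400 to 2999 bp, and was 13.6% (15 of 110 peaks) from 3600 bp on.

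Of the 10 regions with an island in D1 alone, 4 lay wholly under it, at Adora2a, Gpr6, Ptprm and beside Drd2. Adora2a, the adenosine A2a receptor gene whose promoter drives the A2a-cre line, had H3K4me3 over 3697 bp in A2a (chr10:75316669-75320365) and 3375 bp in D1, with a fold of 3.79 and 3.74. Its −log10 q stood at percentile 90.6 in A2a and 53.4 in D1. A D1 island of 45.0 kb with 4153 reads, at percentile 99.9 of the D1 list by reads, covered the whole peak, and the nearest A2a island was 55.6 kb away. The H3K4me3 peak was thus broad in both neurons, and the H3K27me3 island lay in D1 alone.

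Gpr6, an orphan receptor gene of striatopallidal neurons, had 2520 and 2475 bp of H3K4me3 (chr10:41070204-41072723). A D1 island of 21.8 kb with 1265 reads covered it, and the nearest A2a island was 38.3 kb away. Drd2, the dopamine D2 receptor gene, had a broad peak of 3507 bp in A2a and 2921 bp in D1 whose edge lay 26 bp from an annotated start (chr9:49340653-49344159). It lay under a D1 island of 7.8 kb with 559 reads. There the nearest A2a island, the 1 in the window plotted, was 0.252 kb from the peak and ended before the start. It covered 1774 bp of the Drd2 promoter (2 kb upstream to 1 kb downstream of the start), and the D1 island covered 3000 bp. The promoter was thus marked in both lists, while the start and the peak were under an island in D1 alone. The D1 list held 8 islands between 26 kb before and 44 kb after the centre of the peak.

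The other 7 regions with a D1 island alone had smaller islands than Adora2a and Gpr6. Ptprm, a receptor phosphatase gene, lay wholly under a D1 island of 6.0 kb with 559 reads, with an A2a island 4.34 kb away. Csmd3 had a D1 island of 3.2 kb with 105 reads over 3620 and 2765 bp of H3K4me3. An internal start of Gad1, which encodes the GABA-synthesizing enzyme GAD67, had 3527 and 3413 bp of H3K4me3 and a D1 island of 2.2 kb with 64 reads, at percentile 11.6, with an A2a island 0.796 kb away. Tmem132e, Tmem64, Magi2 and Cdh8 had D1 islands of 2.4 to 7.4 kb over part of the peak. The median D1 island had 104 reads, so several of these were near or under the middle of the list.

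Among the 61 regions with an island in A2a alone were Gad2, Slc32a1, Cnr1 and Foxp2, the last 3 named after values had been seen. Gad2, which encodes the GABA-synthesizing enzyme GAD65, had 3517 and 3312 bp of H3K4me3 (chr2:22621870-22625386) and lay wholly under an A2a island of 7.6 kb with 462 reads, at percentile 82.8. The nearest D1 island was 119 kb away. Slc32a1, the vesicular GABA transporter gene, had 3347 and 3293 bp, of which 1660 bp lay under an A2a island of 5.4 kb with 290 reads. Cnr1, the cannabinoid CB1 receptor gene, had 3455 and 3394 bp and an A2a island of 5.6 kb with 391 reads. Foxp2, a forkhead gene of striatal neurons, had 2613 and 2605 bp, all of it under an A2a island of 8.4 kb with 823 reads. The H3K4me3 peak was of nearly equal length in both neurons at each of these 4 genes, and the D1 list held no island over it.

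By bases under H3K27me3, the highest in A2a alone were a peak 128 kb from the start of Dpyd (all 3971 bp, D1 island 3.51 kb away), the neuroligin Nlgn1 (3601 of 3639 bp, A2a island of 5.2 kb with 303 reads) and Gad2, then the sodium pump subunit Atp1b1 (3200 bp) and Pcp4l1 (3088 bp). The islands over Atp1b1 and Pcp4l1 were shorter, 3.2 and 3.4 kb, with 184 reads each. Htr1b, the serotonin 1B receptor gene, had 2905 of 3752 bp under an A2a island of 4.4 kb. Over the 61 regions the A2a island was a median of 3.4 kb long at percentile 49.7 of the list by reads, and in 16 regions it covered the whole peak.

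Where both neurons had an island, the A2a island was a median of 7.4 kb long at percentile 88.5, against 3.4 kb at percentile 49.7 where A2a alone had one. The D1 island was a median of 4.8 kb at percentile 76.7, close to the 4.6 kb at percentile 66.3 of the 10 regions with a D1 island alone. Over the 39 regions with both, the whole peak was covered in 30 by A2a and in 15 by D1 islands. Sox2, a neural progenitor transcription factor, had H3K4me3 over 3758 bp in A2a and 2867 bp in D1 (chr3:34649201-34652958), under an A2a island of 12.8 kb with 973 reads and a D1 island of 36.2 kb with 2779 reads. The D1 list held a second peak inside the same A2a interval, so the D1 length leaves out part of the signal there. Slit2, an axon guidance ligand, had 3381 and 3408 bp under islands of 8.0 and 9.6 kb. Dlx5, a homeobox gene of GABAergic progenitors, had 3361 and 2850 bp under islands of 17.2 and 2.8 kb. The receptor phosphatase gene Ptprg (3619 and 3608 bp), the semaphorin gene Sema6a (3667 and 2466 bp), the purinergic receptor gene P2ry1 (3594 and 2876 bp) and Slitrk1 (3516 and 3266 bp) lay wholly under islands in both. In pooled lists an overlap of both marks does not tell nuclei with both from nuclei with 1 of them, and the share of each was not tested.

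**Figure D4:**
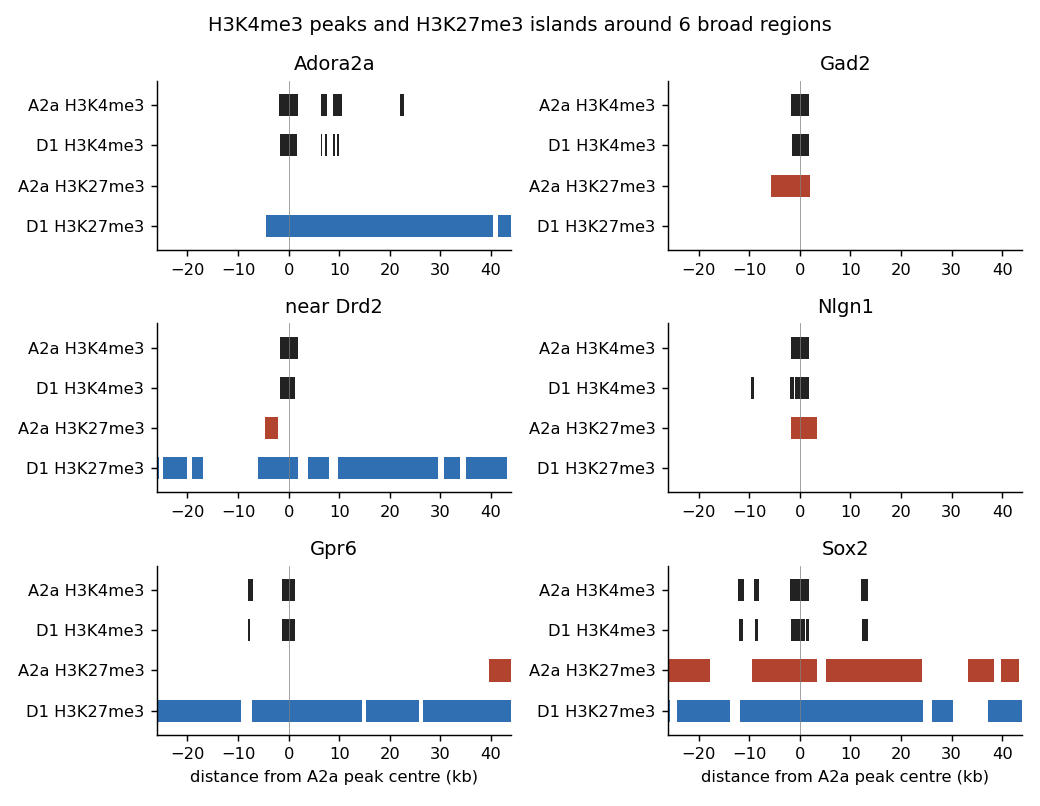
All H3K4me3 peaks (black) and H3K27me3 islands (A2a red, D1 blue) around 6 broad regions, by distance in kb from the centre of the broad A2a peak in order of genome position (x axis), cut at the edges of the window. The peak at 0 kb has an island over it in D1 alone at Adora2a, Gpr6 and near Drd2, in A2a alone at Gad2 and Nlgn1, and in both at Sox2.

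Across genes, 888 of 20807 autosomal protein-coding genes (4.27%) had their start in a broad region, which is 8.14% of the 10913 with a start in any A2a peak. The listed genes of striatal neurons and synapses are set beside these shares, though no test was made of any list. The lists were written with earlier results of these data known, and gene length was not matched. A list share above these values therefore supports nothing. Of 25 annotated genes for striatal receptors, peptides and cAMP signalling, 5 had their start in a broad region. Besides Adora2a, Gpr6 and Cnr1 these were Ppp1r1b, which encodes the phosphatase inhibitor DARPP-32 (3414 and 3086 bp), and Rgs9, a regulator of G protein signalling enriched in striatum (2450 and 2582 bp). The opioid peptide gene Penk was broad in A2a (3039 bp) and not in D1 (2073 bp), and the tachykinin gene Tac1 was broad in D1 (2504 bp) and not in A2a (2278 bp).

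Of 18 transcription factor genes of spiny projection neurons, 3 had their start in a broad region, Foxp2, Foxo1 and the zinc finger gene Tshz1 (3049 and 3004 bp). Another 3, Rarb, Zfp503 and Mef2c, had a broad region elsewhere in the gene or within 2 kb. That brought the list to 6 of 18 by this wider rule, against 5.89% of all autosomal coding genes. The wider rule gives long genes more room for a region, and gene length was not matched. Bcl11b, the gene of the striatal regulator CTIP2, was broad in A2a (4217 bp), and its longest D1 peak over the start was 1070 bp. Of 18 immediate early genes, 4 had their start in one. Jun had 3315 and 3142 bp, Arc, which encodes an activity-regulated cytoskeletal protein of the synapse, 3009 and 2861 bp, Nr4a3 2783 and 2769 bp and Junb 2692 and 2513 bp.

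Of 20 postsynaptic genes, 6 had their start in a broad region. The AMPA receptor subunit gene Gria2 had the longest, 3891 bp in A2a and 3791 bp in D1, and the GABA-A receptor subunit gene Gabra2 had 2889 and 3025 bp. Gphn, the gene of the inhibitory scaffold gephyrin, had 2523 and 2430 bp, Dlgap1 2447 and 2407 bp, and the neuroligins Nlgn1 and Nlgn2 made up the 6. Of 18 presynaptic genes 4 had one. These were the vesicle calcium sensor gene Syt1 (3807 and 3852 bp), the active zone genes Rims1 (3165 and 3047 bp) and Bsn (2702 and 2695 bp), and the SNARE gene Snap25 (2782 and 3079 bp). Dlgap1 and Gphn were therefore close to the cutoff, and Gria2 and Syt1 far above it.

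Of 20 ubiquitously expressed genes, 2 had their start in a broad region, the heat shock genes Hspa8 (3066 and 2628 bp) and Hsp90ab1 (2906 and 2543 bp). The list of H3K4 methylation and demethylation genes gave 1 of 18 (5.56%), Kmt2e. None of the 62 listed markers of oligodendrocytes, astrocytes, microglia, endothelium, striatal interneurons or cortical excitatory neurons had a broad region at its start. Over all autosomal coding genes the share was 4.27%, and 8.14% of those with their start in an A2a peak. A count of none is therefore near the background in lists this small. Of the 62 markers, 15 had an A2a peak and 12 a D1 peak at the start. The longest of these in A2a were at Slc1a3, the glial glutamate transporter gene (2379 and 1346 bp), Olig1 (2253 and 1571 bp) and Sox9 (2043 and 1531 bp), and the longest in D1 was at Mbp (1961 and 1959 bp), all below the cutoff in both neurons.

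**Figure D5:**
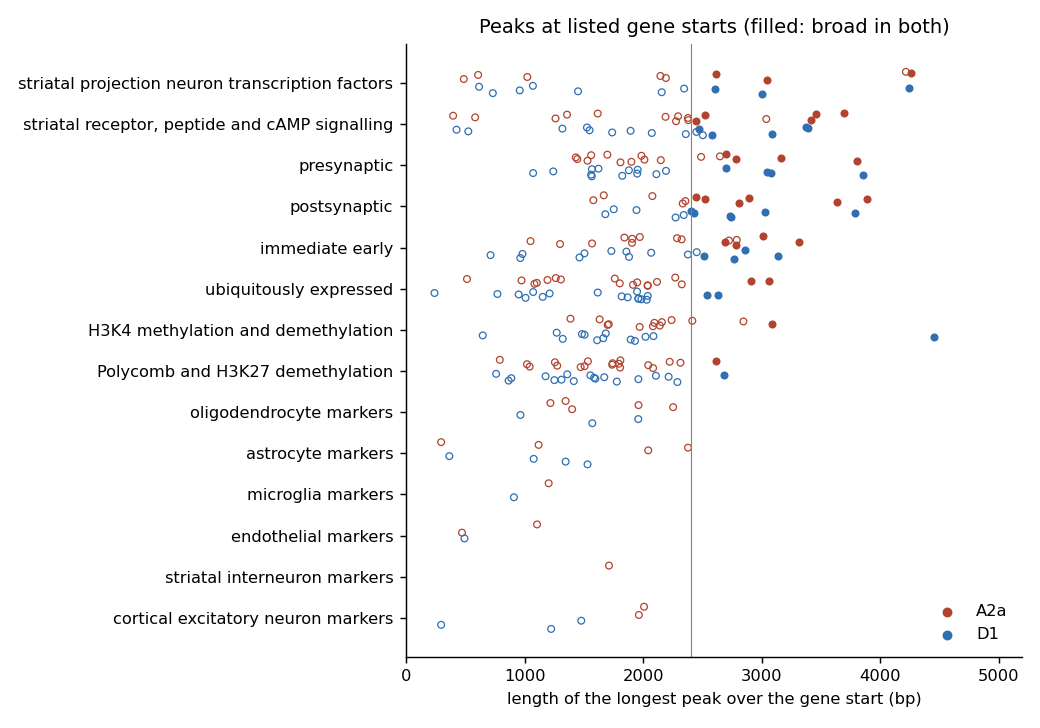
Length in bp (x axis) of the longest H3K4me3 peak over the start of each listed gene, by list (y axis), in A2a (red) and D1 (blue). Filled points are genes with a broad region in both neurons, the grey line marks 2400 bp, and no filled point lies in the 6 lists of markers of other cells.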

How the data were processed

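CnR libraries of H3K4me3 (Abcam antibody) and H3K27me3 (Active Motif antibody) from A2a and D1 nuclei were analysed from 4 lists, each of 2 pooled replicates, which hold 8 of the 28 samples. The other 20 samples were not analysed here. Alignment to mm10 was done by the authors in Bowtie2 (version 2.1.0). Duplicates, reads of mapping quality under 20 and inserts outside 150 to 500 bp were dropped. For H3K4me3 the authors ran MACS2 (q-value threshold 0.01, narrow peaks), and a deposited peak carries a fold enrichment (a ratio within the pooled library), a −log10 p-value, a −log10 q-value, a score made from it and a summit position. For H3K27me3 the authors ran SICER (windows of 200 bp, gaps of 600 bp, false discovery rate of 0.01) against a control whose identity is not given in the sources used here, and each deposited island holds a count of reads without normalization. Library totals are not part of the lists, so depth is unknown.

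From these, lengths, overlaps of at least 1 bp, and percentiles within each list were computed, with gene starts from GENCODE vM21 and sequence from the RefSeq GRCm38.p6 genome. Positions are counted from 1. The start was the 5′ end of a gene, and an internal start is that of another transcript. The CpG ratio used 500 bp. Shares have Wilson intervals at the 95% level, which cover counting error only. No test between neurons was possible, since replicates were pooled.

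The genes named are the 12 longest regions, those just inside and outside the cutoff, the 5 highest and lowest length ratios, the 5 with most bases under H3K27me3 in each class, up to 5 farthest from a start, and the members among 221 genes of 14 lists, of which 220 were found in the annotation (all but Gpr52). The result of the Polycomb list is not reported here. Other genes named were chosen after values had been seen. The members and lists were chosen with earlier results of these data known. The 8 results were recomputed under 49 alternatives, of which 4 were added after seeing the data. The procedures were tested on simulated peaks, and 300 of 300 planted broad regions were recovered. The simulated peaks were isolated, without noise or split peaks, so this checks only that the rule was coded as stated. Scripts were run in Python (version 3.11.15), numpy (version 2.4.6), pandas (version 2.3.3), scipy (version 1.17.1) and matplotlib (version 3.10.9).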

Additional observations from a re-analysis of the deposited data

How the results depend on the processing

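No paired analysis was possible because each list pools its replicates and no result comes from a test. Leaving out a replicate gives no value for the same reason. Of 49 alternatives to the 8 results, 31 left the value within 1.5 times (counts) or within its 95% interval (shares and medians), and 18 moved it. Lists without depth limit every comparison of A2a with D1.

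With a minimum of 2000 bp in both lists there were 2413 regions and 2098 genes, with a median length ratio of 0.973, a downstream share of 77.7% and a CpG ratio of 0.641. With 3000 bp there were 264 regions and 194 genes, 65.5% of regions at a coding gene start, 12.1% with an A2a island, a length ratio of 0.986, a downstream share of 85.6% and a CpG ratio of 0.532. The share at a start was 93.0% with any coding transcript and 83.4% within 1 kb of the peak. The share with an A2a island was 7.64% with as many islands as in D1, and, as an alternative added after seeing the data, the D1 share was 3.36% in the summit window. The CpG ratio was 0.622 in 1000 bp around the summit and 0.622 in 500 bp at the middle of the peak.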

Other observations

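The X chromosome was outside the rule. Of its 694 A2a H3K4me3 peaks, 54 were at least 2400 bp long and 30 of these overlapped a D1 peak of at least 2400 bp. Both A2a peaks on the Y chromosome were shorter. On the autosomes the share of A2a peaks that were broad in both neurons ran from 3.68% on chromosome 7 to 6.72% on chromosome 12.

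An imprinted gene was among the regions with an island in both neurons. Zdbf2 had H3K4me3 over 2816 bp in A2a and 2611 bp in D1, overlapping A2a and D1 islands of 42.2 and 29.4 kb with 5231 and 1780 reads. Its A2a island was the longest over any of the 39 regions with an island in both.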
